A study of Caenorhabditis elegans with 2 samples.

Results

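The genes described are 9 bZIP transcription factor genes of Caenorhabditis elegans other than skn-1, namely cebp-1, cebp-2, zip-1, zip-2, atf-4, atf-7, fos-1, jun-1 and crh-1. They were taken by name, out of 19973 protein-coding genes in the Ensembl annotation of the WBcel235 assembly (ce11), and each was examined for regions bound by the bZIP-type factor SKN-1. A region was given to a gene when its summit lay in the gene body or up to 1000 bp upstream of any annotated transcript start. Binding was measured with ChIP-seq, which sequences DNA recovered with a bound protein. The animals were L1 larvae, the first larval stage, taken whole and with both sexes pooled. Their strain, OP178, has the genotype unc-119(ed3) III; wgIs178, where wgIs178 is the insertion that supplies eGFP-skn-1. The labels give skn-1 as the antibody's target and eGFP-skn-1 as the protein precipitated. All data are from 1 group with 2 biological replicates, and the design holds no contrast of conditions. Fragments of 150 to 350 bp are recorded. The data come from whole larvae, so the cells in which a site was bound cannot be told, and no ChIP of worms without the tag was analysed here.

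Transcription factors of the bZIP class hold a basic stretch that contacts DNA and, in most of them, a leucine zipper through which 2 molecules pair, so the members of the class form homodimers and heterodimers. SKN-1 is an exception that binds DNA as a monomer. In worms the class includes regulators of axon repair, of responses to pathogens, of the integrated stress response and of memory, and the p38 kinase PMK-1 acts on both SKN-1 and ATF-7.

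The deposited lists were ranked by the authors' signal value, and a rank is read only within its own list. The optimal list, which holds the peaks that passed the authors' reproducibility threshold, contained 3484 peaks. The pooled list contained 27729 regions, background regions included, and each replicate's own list 30000. All 3484 optimal peaks had the same rank in the pooled list, so that the optimal list was the top of the pooled list by signal value, down to a value of 33.0. Read numbers are not in these files and the depth of each replicate is unknown. Around 8 of the 9 genes, optimal peaks stood at 38.0 to 76.0 per Mb in the surrounding 500 kb, against 34.7 per Mb genome-wide. Around zip-2 they stood at 34.0 per Mb. The genes' own peaks may be counted in these values, and the same windows around all protein-coding genes were not measured.

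An optimal peak lay at 7 of the 9 bZIP genes, and atf-4 and fos-1 had none. By the same rule 16.5% of all protein-coding genes held an optimal peak. The bZIP genes are long, with a median span (body plus upstream windows) of 8419 bp against 3027 bp for all protein-coding genes, and among genes with a span of at least that median, a set defined after the data were seen, 29.0% held an optimal peak. In all, 11 optimal peaks fell at the 7 genes. A pair of them lay at 4 genes (cebp-1, atf-7, jun-1 and crh-1), while 1.41% of all protein-coding genes held 2 or more. That share was not taken over genes of like span, and crh-1 and jun-1 span 37215 and 20075 bp. All 9 genes had a region in the pooled list, where the share among protein-coding genes was 57.5%. No test was made of these shares, because the genes were chosen with earlier results of the same data known.

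**Figure D1:**
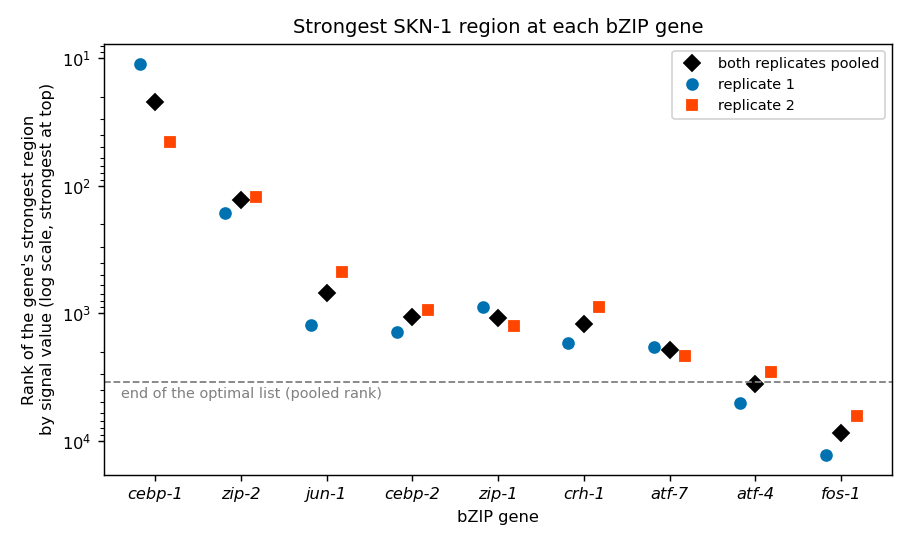
Rank of the strongest region at each bZIP gene (vertical log axis, strongest at the top) in the pooled list (black) and in the lists of replicate 1 (blue) and replicate 2 (orange). The dashed line marks rank 3484, the end of the optimal list: cebp-1 stands highest at pooled rank 22, atf-4 lies just past the line at 3593 and fos-1 lowest at 8661.

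In order of the pooled rank of the strongest region, the genes were cebp-1 (22), zip-2 (129), jun-1 (697), cebp-2 (1077), zip-1 (1094), crh-1 (1209), atf-7 (1926), atf-4 (3593) and fos-1 (8661). The ranks of the strongest region in the replicates' own lists were 11 and 45 for cebp-1 and 164 and 123 for zip-2, in replicates 1 and 2. Both replicates thus placed cebp-1 first and zip-2 second among the 9 genes. The next genes changed places between the replicates. For zip-1 the ranks were 890 and 1265, for jun-1 1235 and 475, for cebp-2 1403 and 949, and for crh-1 1724 and 893, so these 4 neighbours in the order did not separate beyond the difference between replicates. The gene atf-7 followed at 1850 and 2170, then atf-4 at 5022 and 2903, and fos-1 at 12970 and 6371, which put these 3 genes in the same order in both lists.

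The strongest peaks, at cebp-1 and zip-2, are shown first as sequence, with the weaker peak of cebp-1 and both peaks of atf-7, the peaks that held the DNA motifs searched. Each sequence covers 75 bp on either side of a summit, on the plus strand of WBcel235. Capitals mark matches on either strand to the SKN-1 core (TGTCAT or TATCAT), the AP-1 type site (TGANTCA) of Fos and Jun dimers and the CRE type site (TGACGT) of CREB and ATF factors. The C/EBP type site (TTGCGCA) was also searched and had no match. Matches to the SKN-1 core and to the CRE type site do not share letters with each other in these windows.
cebp-1 stronger peak, chrX:1454463-1454613: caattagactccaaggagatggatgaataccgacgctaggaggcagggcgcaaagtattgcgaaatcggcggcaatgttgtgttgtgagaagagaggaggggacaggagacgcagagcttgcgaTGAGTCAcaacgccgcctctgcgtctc
cebp-1 weaker peak, chrX:1453895-1454045: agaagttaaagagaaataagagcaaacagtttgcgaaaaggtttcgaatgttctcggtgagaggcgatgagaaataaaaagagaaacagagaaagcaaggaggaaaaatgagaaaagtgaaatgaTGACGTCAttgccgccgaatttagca
zip-2 peak, chrIII:833805-833955: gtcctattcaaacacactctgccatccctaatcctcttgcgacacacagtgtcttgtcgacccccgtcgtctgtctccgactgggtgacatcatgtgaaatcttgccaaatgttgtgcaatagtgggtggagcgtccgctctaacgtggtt
atf-7 stronger peak, chrIII:4494785-4494935: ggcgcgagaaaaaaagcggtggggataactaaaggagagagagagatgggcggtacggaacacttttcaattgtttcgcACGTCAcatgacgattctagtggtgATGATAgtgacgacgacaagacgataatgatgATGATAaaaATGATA
atf-7 weaker peak, chrIII:4496216-4496366: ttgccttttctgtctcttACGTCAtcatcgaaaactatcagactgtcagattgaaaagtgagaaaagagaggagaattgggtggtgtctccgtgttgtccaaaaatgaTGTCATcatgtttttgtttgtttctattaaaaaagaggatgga

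The SKN-1 core stood in the windows of 2 of the 11 peaks, both at atf-7, a share near the 16.4% of all optimal peaks that held it. The stronger atf-7 peak held 3 cores, at 31.5, 63.5 and 72.5 bp from the summit, and 0.545% of all optimal peaks held 3 or more. All 3 matched as TATCAT on the minus strand, in a stretch where the letters GAT recur, and the search did not set repeated letters apart. The weaker held 1, at 35.5 bp. The share over all optimal peaks was close to the 15.2% found in windows of the same size 1000 bp away, so the core was little more frequent at the summits than beside them. The CRE type site was in 3 of the 11 windows, the weaker cebp-1 peak and both atf-7 peaks, against 6.60% of all optimal peaks and 5.02% of the windows 1000 bp away. At the weaker cebp-1 peak it matched on both strands at overlapping places, 52.5 and 54.5 bp from the summit, and at the stronger atf-7 peak it lay 6.5 bp from the summit. The AP-1 type site was in the window of the stronger cebp-1 peak alone, 52.0 bp from the summit, against 4.25% of all optimal peaks and 4.68% of the windows 1000 bp away. The C/EBP type site was in 0 of 11 windows, against 3.47% of all optimal peaks and 0.890% of the windows 1000 bp away, the widest gap between summits and flanks among the 4 motifs as a ratio. The windows of zip-1, zip-2, cebp-2, jun-1 and crh-1 held none of these letters. GC content over the 11 windows ran from 33.8% to 55.0% with a median of 42.4%, against a median of 43.7% over all optimal peaks.

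**Figure D2:**
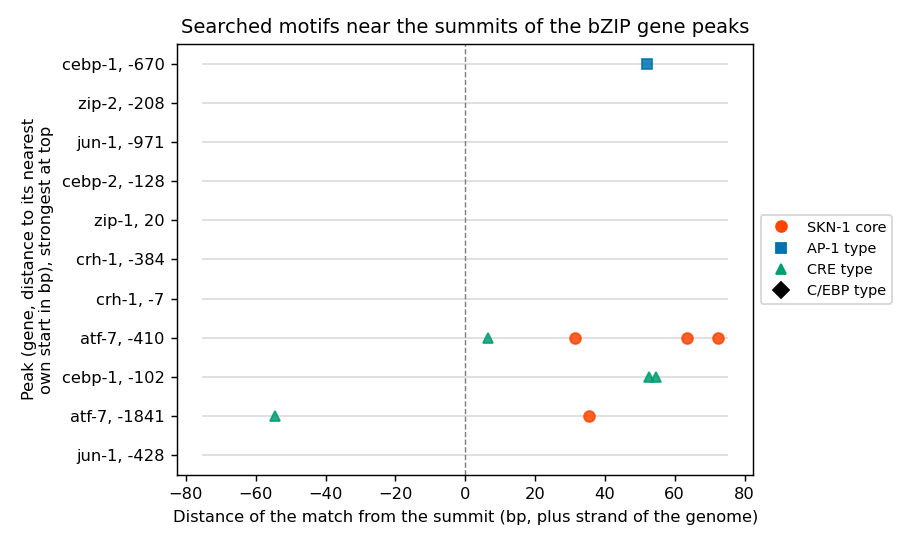
Position of each motif match (horizontal axis, bp from the summit on the plus strand) within 75 bp of the summit of the 11 optimal peaks at the bZIP genes, listed from the strongest at the top; labels give the gene and the distance in bp to its nearest own start, negative when upstream. Matches lie only at the cebp-1 and atf-7 peaks, and the C/EBP type site has none.

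The C/EBP genes held the strongest peak and a middling one. The gene cebp-1 (WBGene00016997, chromosome X, 1452695 to 1453868, minus strand), which acts downstream of the DLK-1 kinase in axon regeneration, has a single annotated start. Its stronger peak (chrX:1454421-1454626) lay 670 bp upstream of that start with a signal value of 386, which was 6.64 times the median of the optimal list. It had a signal value of 218 in replicate 1 and 172 in replicate 2, with summits 0 and 1 bp from the pooled summit. The weaker peak (chrX:1453822-1454117) lay 102 bp upstream, with a signal value of 50.5 and rank 2114. This second peak had a counterpart in 1 replicate: replicate 2 had a region 6 bp away with a signal value of 61.0 and rank 576, whereas the nearest summit in the list of replicate 1 was the stronger peak itself, 568 bp away. Over all optimal peaks, 95.3% had a region of replicate 1 within 100 bp. The optimal peaks ranked directly above and below the stronger one lay nearest to mrp-2 (rank 21, signal value 405) and rpl-11.2 (rank 23, signal value 383), also on X. All 3 lie between 0.5 and 3 Mb of X, where optimal peaks were found at 69.6 per Mb. The part of this density in the rank of cebp-1 was not tested.

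The gene cebp-2 (WBGene00016754, chromosome I, 6253082 to 6253584), a second C/EBP-family factor that acts with ZIP-2 in surveillance immunity, had 1 optimal peak, at 6252806 to 6253101, 128 bp upstream of its only annotated start. The signal value was 77.6 in the optimal list, 30.2 in replicate 1 and 48.4 in replicate 2, and the replicate summits lay 5 and 11 bp away. This was the only region at cebp-2 in any of the 4 lists. The summit was also 747 bp upstream of lpd-2, the only other protein-coding gene whose span held any of the 11 peaks.

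The zip genes of pathogen responses were each bound near an inner start. The gene zip-2 (WBGene00019327, chromosome III, 832982 to 835814), which responds to Pseudomonas and to blocked translation, has 3 annotated starts. Its optimal peak (chrIII:833732-834027) lay in an intron, 898 bp downstream of the first start and 208 bp upstream of the next. The signal value was 198 in the optimal list, 86.6 in replicate 1 and 115 in replicate 2, so that it was far above the other 5 pooled regions of the gene, the highest of which had rank 3865. The gene zip-1 (WBGene00006986, chromosome III, 12333745 to 12345384), a factor of the response to intracellular pathogens, has 5 distinct starts. Its optimal peak (chrIII:12335515-12335810) lay 1918 bp downstream of the first start, in a 5' UTR 20 bp past an inner start, and it was the only pooled region in a span of 12640 bp. The signal value was 77.1 in the optimal list, 39.5 in replicate 1 and 42.0 in replicate 2. The replicate summits were 18 and 70 bp from the pooled summit, the widest offset among peaks found in both replicates.

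Of the ATF and CREB genes, crh-1 and atf-7 each held a pair of optimal peaks and atf-4 held none. The gene atf-7 (WBGene00000223, chromosome III, 4491627 to 4499045, minus strand), a target of the p38 kinase PMK-1 in innate immunity, has 6 distinct starts and held 2 optimal peaks in introns. The stronger (chrIII:4494712-4495007) lay 4185 bp downstream of the first start and 410 bp upstream of an inner one, with a signal value of 53.9 and rank 1926. It ranked 1850 in replicate 1 and 2170 in replicate 2. The weaker (chrIII:4496143-4496438), 1841 bp upstream of the same inner start, had a signal value of 35.3 and rank 3229. Its replicates were far apart, with rank 2630 in replicate 2 and rank 19562 in replicate 1, where the signal value of 4.69 was below the list's median of 5.55.

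The gene crh-1 (WBGene00000793, chromosome III, 11657767 to 11693981), the CREB homologue with a role in long-term memory, is the longest of the 9 at 36215 bp and has 7 distinct starts. Its stronger peak (chrIII:11657235-11657530) was 384 bp upstream of the first start and its weaker (chrIII:11689357-11689652) was 31738 bp into the gene, 7 bp upstream of an inner start. The stronger had a signal value of 73.2 in the optimal list, 25.4 in replicate 1 and 49.9 in replicate 2. The weaker had 54.4 in the optimal list, 26.3 in replicate 1 and 28.0 in replicate 2. In replicate 1 the inner peak ranked above the outer one (1724 and 1810), and in replicate 2 below it (2337 and 893), so which of the pair was stronger was not the same in both replicates. Another 25 pooled regions lay along the gene, none of them above a signal value of 28.9.

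The gene atf-4 (WBGene00000221, chromosome X, 14809156 to 14810810, minus strand), the ATF4 orthologue of the integrated stress response, fell just short of the optimal list. Its strongest pooled region (chrX:14810785-14811080) lay 123 bp upstream of a start with a signal value of 31.9, 109 places past the end of the list. Replicate 2 had a region at the same summit with rank 2903, and replicate 1 had one 32 bp away with rank 5320. The summit was also 129 bp upstream of WBGene00303075, an annotated protein-coding gene. An optimal peak of rank 2689 (chrX:14808945-14809240) overlapped the last bases of atf-4, but its summit was 63 bp past the end of the gene, outside the rule, and ranked 6953 in replicate 1 and 1992 in replicate 2.

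Jun and Fos pair as AP-1, and the genes for them differed in these lists. The gene jun-1 (WBGene00012005, chromosome II, 9113157 to 9132231) has 9 distinct starts and held 2 optimal peaks. The stronger (chrII:9128272-9128567) lay in an intron 15263 bp into the gene, 971 bp upstream of an inner start, with a signal value of 97.7 in the optimal list, 32.7 in replicate 1 and 66.7 in replicate 2. The replicate summits were 2 and 0 bp away. The weaker (chrII:9112581-9112876) lay 428 bp upstream of the first start with a signal value of 34.6 and rank 3301, within the span of the piRNA gene 21ur-15099 as well. It ranked 3724 in replicate 1 and 5772 in replicate 2, outside the 3484 strongest regions of both.

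The gene fos-1 (WBGene00001345, chromosome V, 6003601 to 6016087), known for its part in anchor cell invasion, had 9 pooled regions and none in the optimal list, over a span of 13487 bp. Their signal values were 9.0 to 16.3, against a median of 12.6 for the pooled list. The strongest lay in an intron 10094 bp into the gene and 292 bp upstream of the non-coding RNA gene F29G9.13, and had rank 12970 in replicate 1 and 29128 in replicate 2. The best-ranked region of replicate 2 was at another place, 1570 bp upstream of an inner start, with rank 6371.

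**Figure D3:**
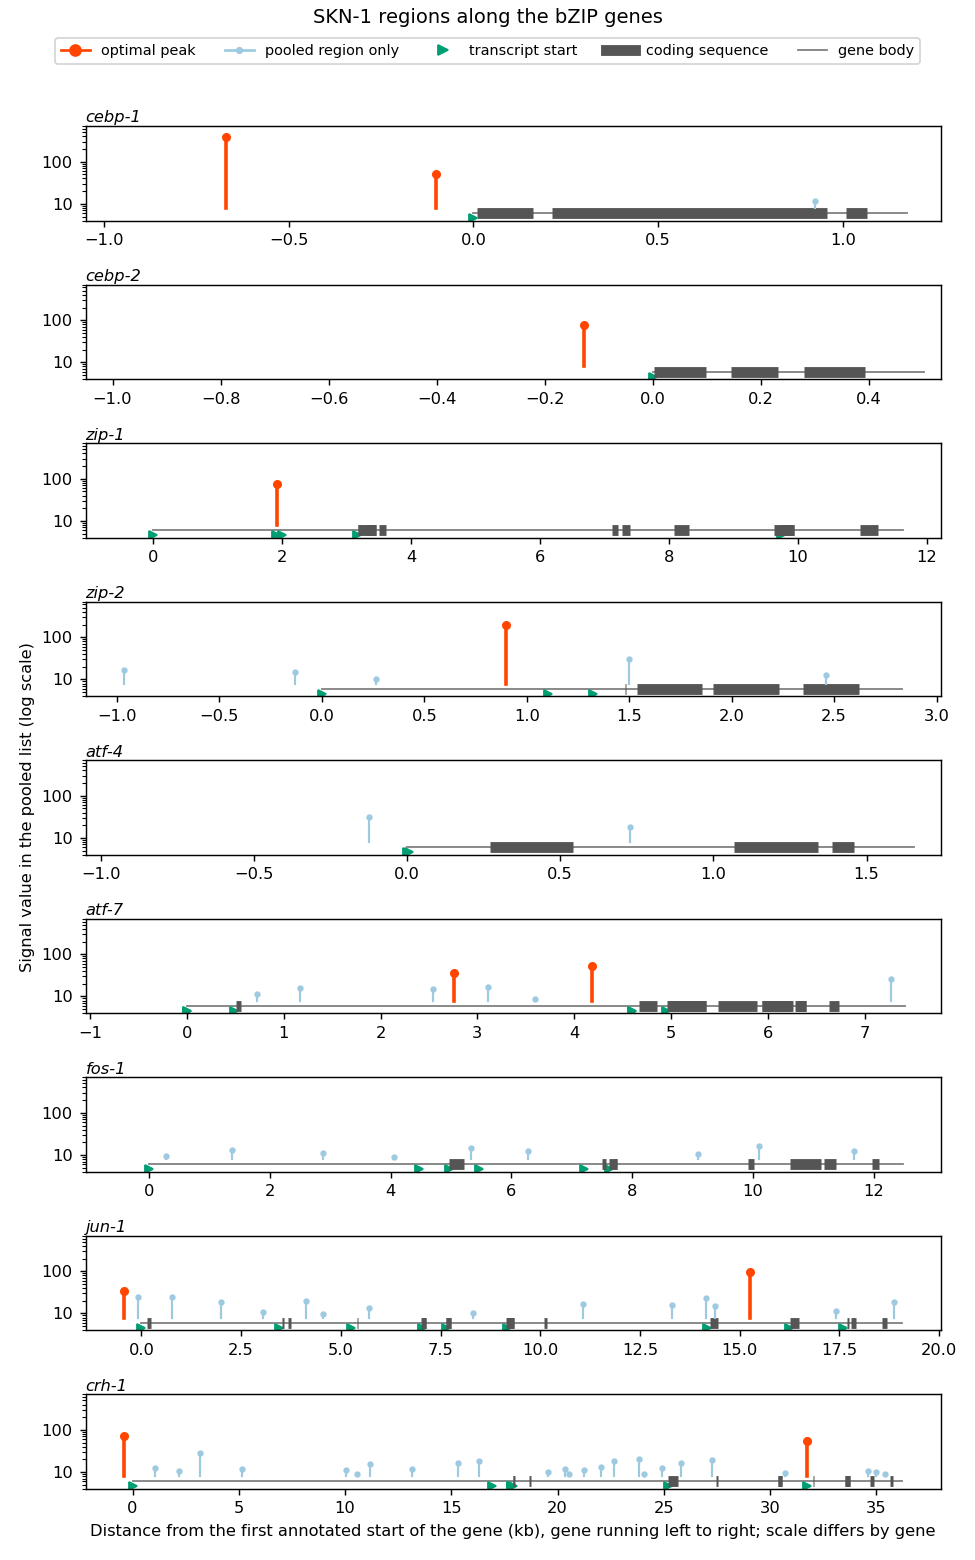
Regions of the pooled list along the 9 bZIP genes, drawn from the first annotated start (horizontal axis, kb, gene running left to right, scale differing by gene) with the signal value on a log axis. Orange stems are the 11 optimal peaks, light blue stems pooled regions below the threshold, green triangles transcript starts and dark blocks coding sequence. Among the genes with an optimal peak, the tallest stem stands inside the gene body in zip-1, zip-2, atf-7 and jun-1. It also does so in fos-1, which has no optimal peak.

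Peaks of the bZIP genes with several starts lay mostly inside the gene. Of the 11 optimal peaks, 6 were in the transcribed body. By pooled summit, 10 were upstream of the nearest start of their own gene, zip-1 being the exception. Close to a start the side changed with the list. Replicate 2 put the zip-1 summit 50 bp upstream. The weaker crh-1 summit, 7 bp upstream in the pooled list, was 4 and 8 bp downstream in replicates 1 and 2. In 4 of the 5 bound genes with 2 or more starts (zip-1, zip-2, atf-7 and jun-1), the strongest peak was in the body, and in crh-1 it was upstream of the first start. Among all protein-coding genes with 2 or more starts and an optimal peak, the strongest lay in the body in 35.4%. For all 11 peaks the nearest protein-coding start was that of the bZIP gene itself. The genes jun-1, crh-1 and atf-7 have 9, 7 and 6 distinct starts, so a summit within them has many own starts to lie near. The shares of all optimal peaks in a body, upstream of the nearest start or nearest to the holding gene's own start were not measured. These counts of the 11 peaks are therefore not read as a trait of the bZIP genes.

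The replicates were then set side by side with equal numbers of regions, the 3484 strongest of each. Replicate 1 placed such a region at 7 of the 9 genes, against 15.8% of all protein-coding genes, and replicate 2 at 8, against 16.4%, the addition being atf-4. Both had one within 100 bp of the other at 7 genes, against 11.8% of all. By peak, 8 of the 11 had such a region of both replicates within 100 bp, and over all optimal peaks the share was 65.2%. The authors set the length of the optimal list by a reproducibility threshold, so some agreement is built in. The list was also the top of the pooled list by signal value, so agreement of each peak is not assured. The 3 without it were the weaker peaks of cebp-1, atf-7 and jun-1.

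**Figure D4:**
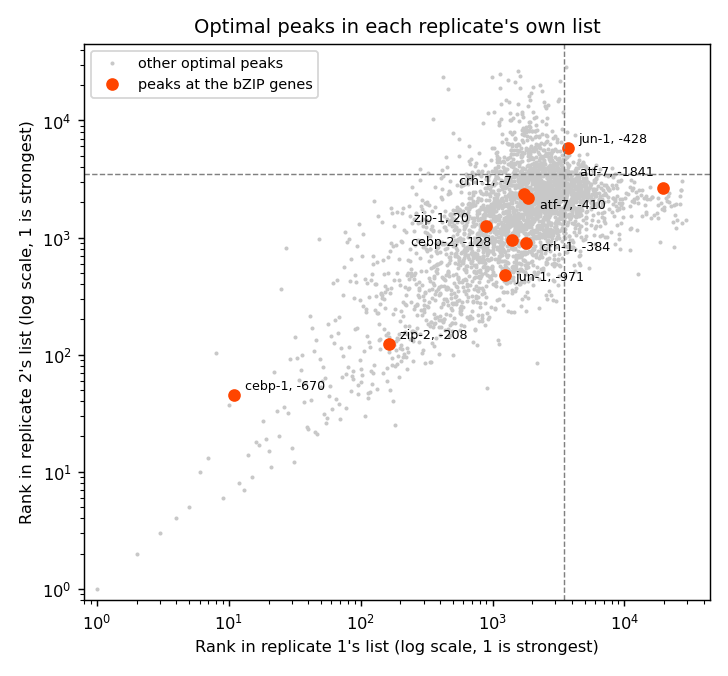
Rank of each optimal peak in the list of replicate 1 (horizontal) and of replicate 2 (vertical), both on log axes with 1 the strongest, for peaks with a region of each replicate within 100 bp; dashed lines mark rank 3484. The bZIP gene peaks (orange, labelled with the distance to the nearest own start in bp) lie inside both lines except the weaker peaks of jun-1 and atf-7; the weaker cebp-1 peak has no partner in replicate 1 and is not drawn.

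Among 18 further bZIP genes, skn-1 included, 5 held an optimal peak, against 16.5% of all protein-coding genes. The strongest were at xbp-1, which acts in the ER unfolded protein response (rank 163, 16 bp upstream), and atf-6, of the same response (rank 293, 301 bp upstream). Next were zip-4, with peaks at ranks 656 and 1291, crh-2 at rank 2308 and zip-11 at rank 3183. A pooled region lay at 12 of the 18, against 57.5% of all protein-coding genes. The genes skn-1 and atf-2 had no region in any of the 4 lists. Together with the 9 genes above, 12 of 27 bZIP genes held an optimal peak. The median span of the 18 genes was 4089 bp.

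Of 23 genes listed as regulators, partners or response genes of these factors, 11 held an optimal peak, against the same 16.5%. The median span over the list was 7079 bp. The strongest was at cbp-1, the CBP/p300-type acetyltransferase that CREB factors recruit (rank 156, 861 bp upstream). In the pathway of cebp-1, dlk-1 (rank 1448, in an intron) and pmk-3 (rank 3115) held one, and mkk-4 and rpm-1 did not. For atf-7, the adaptor tir-1 (ranks 745 and 2765) and the phosphatase vhp-1 (6 peaks, the best at rank 771) held peaks. The kinases nsy-1, sek-1 and pmk-1 did not. At vhp-1, the peak of rank 771 had no region of replicate 2 within 100 bp. The peak of rank 1935, which overlaps it, and the peak of rank 1391 had none of replicate 1. Of the kinases that phosphorylate the translation factor eIF2 upstream of atf-4, pek-1 held one (rank 2731) and gcn-2 did not, with a pooled region at rank 3868. For zip-2 and zip-1, the infection response gene irg-2 (rank 2810) and pals-22, a repressor of the intracellular pathogen response (rank 3114), held one, and irg-1, pals-5 and pals-25 did not. The peak of irg-2 was nearer to the start of C49G7.10 and had no region of replicate 1 within 100 bp. For crh-1, the AMP-activated kinase gene aak-2 held peaks at ranks 718 and 1710, and cmk-1 and crtc-1 held none. Among 3 further MAP kinase genes, listed with fos-1 and jun-1, mpk-1 (rank 940, in an intron) and kgb-1 (rank 1938, nearer to the start of T07A9.12) held one, and jnk-1 did not.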

How the data were processed

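Binding was measured by ChIP-seq in 2 replicates of 1 group. Per the deposited readme, the authors made each replicate's list from its alignment and 1 control alignment, the pooled list from both replicates, and the optimal list by the irreproducible discovery rate. The signal values and −log10 q-values are as deposited; caller, aligner and threshold were not given in the sources used here. The −log10 q-value was at its maximum in 67.3% of optimal peaks, so ranks use the signal value. Only ce11 lists were used, with Ensembl release 115 genes and RefSeq's WBcel235 sequence, and positions count from 1. The ce10 lists were not used here. Python 3.11.15, numpy 2.4.6 and matplotlib 3.10.9 were used, and summit assignment and motif search were checked on made-up positions. The genes, gene lists and motifs were chosen with earlier results of these data known. For this reason counts of genes stand beside shares of all protein-coding genes, and no test was made. The genes named by rule are the 9 bZIP genes, the bound genes of both context lists, every gene sharing a peak, and the genes at neighbouring ranks; unbound genes of the lists were named after their values were seen, to complete each pathway. Alternatives changed the upstream reach, the window, the number of peaks, the matching distance, the ranking and the replicates used. Peaks are not independent replicates.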

Additional observations from a re-analysis of the deposited data

How the results depend on the processing

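The count of bZIP genes with an optimal peak was 7 to 8 under every alternative but 1: it was 6 with the 1742 strongest optimal peaks, atf-7 being lost, and 9.54% of all protein-coding genes were then called. The 8 came from counting any base of a region and from the strongest regions of replicate 2 alone, both adding atf-4. With those 1742 peaks, 6 peaks lay at the 9 genes in place of 11. Of the 18 further bZIP genes, 3 held one in place of 5. Of the 23 regulators, partners and response genes, 6 held one in place of 11. The construction of a shorter list implies such lower counts. With an upstream reach of 2000 bp, 7 of the further bZIP genes and 14 of the regulators, partners and response genes held a peak. With a reach of 500 bp the counts were 5 and 8, and 14.1% of all protein-coding genes were called. With either replicate alone, the counts ran from 7 to 8 for the 9 genes and 10 to 11 for their peaks. They were 4 to 5 for the further bZIP genes and 10 for the regulators, partners and response genes. The share of all protein-coding genes was 15.8% with replicate 1 alone and 16.4% with replicate 2 alone. For the SKN-1 core the same 11 optimal peaks were kept and each window was moved to the nearest summit of 1 replicate's list, which gave 2 windows with the core for either replicate. For the weaker cebp-1 peak, the nearest summit of replicate 1 was that of the stronger peak, 568 bp away. In all, 39 of 42 alternative values stayed within 1.5 times the main value. No paired analysis was possible because there is 1 group. The depth is unknown, which limits the reading of weak regions: the weaker peaks of cebp-1, atf-7 and jun-1, and the atf-4 region, rest on 1 replicate or lie near the end of the optimal list.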

Other observations

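Some regions at the bZIP genes stood below the optimal threshold in the pooled list, and 2 of them, at jun-1, were among the 3484 strongest of replicate 1. Beside the first start of jun-1, replicate 1 had a region 64 bp upstream with rank 1950 and another 782 bp downstream with rank 2826, both stronger there than its region at the weaker optimal peak, at rank 3724. In replicate 2 the region nearest to the start, 94 bp upstream, had rank 4606, and the pooled list had one 80 bp upstream with rank 4786. For the region 782 bp downstream, the pooled list had one at 778 bp with rank 4719, but replicate 2 had none within 100 bp. The closest of replicate 2 at jun-1 lay 265 bp downstream of the start, with rank 14595. The regions at crh-1 and atf-7 given next were outside the 3484 strongest of both replicates. In the first kilobases of crh-1, 3133 bp from a start in replicate 1 and 3161 bp in the pooled list, a region ranked 3582 in replicate 1, 12454 in replicate 2 and 4047 in the pooled list. In the 3' UTR of atf-7 a region ranked 5957 in replicate 1, 3918 in replicate 2 and 4680 in the pooled list. Among the partner genes, cmk-1 had no optimal peak, while its best rank was 1732 in replicate 1 and 7667 in replicate 2.

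Pooled regions, background regions included, were found at a median of 0.753 per kb of span over the 9 bZIP genes. They ran from 0.0791 per kb at zip-1 to 1.57 per kb at zip-2. The median over all protein-coding genes was 0.213 per kb, but only 57.5% of those genes held any pooled region, and the rest enter it with none. Their median span was 3027 bp, against 8419 bp for the 9 genes, and the densities were not compared over genes of like span. The contrast is therefore not read as a trait of bZIP genes. Among the 18 further bZIP genes the values ran from 0 at skn-1 and others to 1.10 per kb at zip-4.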
